A study of Mus musculus with 4 samples.

Results

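The Gpr receptors are genes whose symbol is Gpr followed by a number, with or without one lower-case letter. They were taken from the annotation of the array wherever a probe set carried exactly 1 gene symbol, which gave 69 probe sets for 64 genes, out of 23521 such probe sets for 22180 genes. A further 10 probe sets list a Gpr name together with other genes and were not used. They were measured in cultured Ly6c-high bone marrow monocytes of mice, pooled from 3 animals, enriched with a monocyte kit and sorted by flow cytometry. The strain, sex and age of the mice are not given in the sources used here. Both groups received 20 ng per ml of GM-CSF and the same amount of interleukin 4, cytokines that promote dendritic cell differentiation. Retinoic acid at 100 nM was added to one group (RA, n = 2 arrays) and its solvent DMSO to the other (n = 2 arrays), and RNA was taken after 24 h, on day 1. The design text names the aim as finding genes that retinoic acid changes in these cells.

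G protein-coupled receptors thread through the cell membrane several times and pass a signal from an outside ligand to G proteins, which switch cAMP and calcium signalling inside the cell. The Gpr numbers were handed out to receptors recognised from their sequence while no ligand was known, hence the name orphan. That name does not hold for all of them: Gpr183 has a known oxysterol ligand, Gpr65 responds to protons, Gpr55 to lysophosphatidylinositol, and Gpr107, Gpr108, Gpr155 and Gpr180 are membrane proteins that resemble receptors or reside on organelles. In monocytes and macrophages such receptors sense acid, lysolipids, fatty acids and tryptophan metabolites. The genes were therefore grouped by role: 3 proton and lysolipid sensors, 11 receptors for lipids and metabolites, 9 leukocyte receptors, 7 membrane proteins of organelles, 2 receptors with constitutive cAMP signalling, 2 class C receptors and 30 others.

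The authors deposited RMA intensities, and values are given here as log2 intensity. Median intensity was between 80.0 and 81.8 on the 4 arrays. The arrays give no detection call, so a dim level of 6.35 was set: 95 percent of 1405 control probe sets have a mean log2 intensity under it. The controls are those of olfactory and vomeronasal receptors, which are genes of sensory neurons. The brightest control had a mean log2 intensity of 12.66, so not all controls were dim here. By that guide, 32 of the 64 genes were above the dim level in at least 1 group, 26 of them in both groups, and 32 were under it in both. All 8 measured markers of Ly6C-high monocytes, Ly6c2 and Ccr2 among them, were above the dim level in both groups. The labels do not say whether arrays of one treatment came from separate cultures, so the p-values cover no more than the variation among these 4 arrays, and that variation may be technical. Fewer cells that carry a transcript and less transcript per cell cannot be told apart in RNA from whole cultures.

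Retinoic acid lowered 5 Gpr genes (Gpr85, Gpr132, Gpr35, Gpr155 and Gpr146) and raised 2 (Gpr55 and Gpr31b), at a Benjamini-Hochberg adjusted p under 0.05 in limma, fitted on all 39720 tested probe sets. These were 7 of 69 probe sets, where 2.09% of all tested probe sets passed. By gene they were 7 of 64, against 3.07% of all genes, with 5 lower against 1.79% and 2 higher against 1.28% (1.19% and 0.904% of probe sets). Among the 27 Gpr genes whose mean over all 4 arrays was above the dim level, 7 passed, against 5.16% of all genes above it. The median difference over the 64 genes was 0.02 on the log2 scale, RA minus DMSO, and 0.01 over all genes. The arrays of the groups did not overlap for 28 of the 64 genes, a share of 43.8% that lies near the 48% of all genes and 44% of all probe sets. With 2 arrays a group, an exact permutation test cannot give a p under 0.333, and every call rests on limma's shared variance. When any 1 of the 4 arrays was left out, limma called 0 of the 69 probe sets (10 to 15 of them at an unadjusted p under 0.05), while the sign of all 7 differences was kept. Since the groups do not overlap for any of the 7, leaving out 1 array could not turn a sign. With the probe sets that hold one constant value kept in the fit, limma called 0 of the 69 as well. In that fit 18 of the 69 had an unadjusted p under 0.05, as did 6260 of all 41345 probe sets. In the main fit these were 15 of the 69 and 5335 of all 39720.

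**Figure D1:**
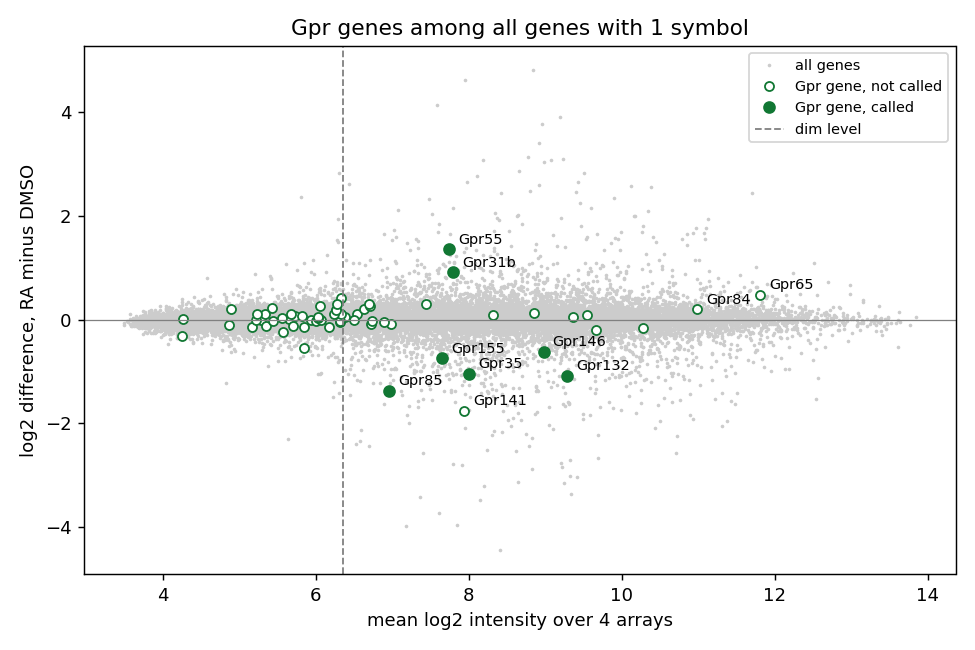
Each point is a gene, with its mean log2 intensity over the 4 arrays on the x axis and its log2 difference, RA minus DMSO, on the y axis; grey points are all genes with 1 symbol, open green circles are Gpr genes that were not called, filled ones the 7 called by limma, and the dashed line is the dim level of 6.35. The 7 called genes lie right of the dim level, while most Gpr genes cluster around a difference of 0.

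Gpr132, a receptor studied in lymphocytes and macrophages for its response to lysolipids and oxidised fatty acids, fell with retinoic acid (probe set 17284247). Its log2 intensity was 9.80 and 9.86 with DMSO and 8.81 and 8.69 with RA. Both RA arrays lay below both DMSO arrays, with 0.99 between the nearest ones, and all 4 were well above the dim level. The difference was -1.08 ± 0.09 (log2, SE), 2.11-fold lower with retinoic acid (limma adjusted p = 0.0134). Without any 1 array the difference stayed between -1.14 and -1.02, with adjusted p of 0.0862 to 0.134.

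Gpr65, the proton-sensing relative of Gpr132 that raises cAMP in acid surroundings, did not pass. It measured 11.53 and 11.62 with DMSO and 12.13 and 11.98 with RA. The RA arrays were the higher ones and did not overlap with DMSO. The difference was 0.48 ± 0.09, with a 95% confidence interval of 0.24 to 0.72 and an adjusted p of 0.107. It passed where only probe sets with 1 symbol were fitted (adjusted p = 0.0243) or the prior variance followed intensity (0.0360). Gpr4, the third member of the group, is a proton sensor best known from blood vessels. It lay close to the dim level, at 6.45 and 6.52 with DMSO and 6.48 and 6.70 with RA, and its groups overlapped.

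Of the 11 receptors for lipids and metabolites, 2 rose, 1 fell and 8 did not pass, where 3.07% of all genes passed and 5.16% of those above the dim level. Gpr55, a receptor for lysophosphatidylinositol, had the largest rise of the Gpr genes (probe set 17225134). It measured 7.16 and 6.98 with DMSO and 8.46 and 8.38 with RA. Its groups lay 1.22 apart at their nearest arrays. The difference was 1.35 ± 0.10, 2.56-fold higher (limma adjusted p = 0.0112), and between 1.26 and 1.45 without any 1 array (adjusted p 0.0752 to 0.0964).

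Gpr31b, the mouse form of a receptor for hydroxyeicosatetraenoic acid, rose as well (probe set 17340998). Its values were 7.44 and 7.25 with DMSO and 8.23 and 8.29 with RA. Both RA arrays were above both DMSO arrays. The difference was 0.91 ± 0.10, 1.88-fold higher (limma adjusted p = 0.0273; 0.117 to 0.169 without any 1 array). RefSeq lists the pseudogenes Gpr31a and Gpr31c on the same chromosome, and signal from such copies cannot be told apart from that of Gpr31b with these files.

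Gpr35, which responds to the tryptophan metabolite kynurenic acid and is expressed in gut and myeloid cells, moved the other way (probe set 17215873). It measured 8.52 and 8.54 with DMSO and 7.55 and 7.43 with RA. The DMSO arrays were nearly alike and the RA arrays lower by about the same amount. The difference was -1.04 ± 0.09, 2.06-fold lower (limma adjusted p = 0.0138; 0.0865 to 0.137 without any 1 array).

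Among the receptors of this role that did not pass, Gpr84 and Gpr183 were far above the dim level. Gpr84, a receptor for medium-chain fatty acids that inflammatory signals induce in macrophages, measured 10.80 and 10.96 with DMSO and 11.25 and 10.92 with RA. Its groups overlapped, and the difference was 0.20 with a 95% confidence interval of -0.16 to 0.57. Gpr183 guides lymphocytes and dendritic cells along oxysterols. It measured 9.42 and 9.26 with DMSO and 9.45 and 9.33 with RA, a difference of 0.05 with an interval of -0.21 to 0.31, which leaves out a change of 2-fold in either direction. Gpr18, the next protein-coding gene to Gpr183 on chromosome 14, measured 6.33 and 5.91 with DMSO and 6.60 and 6.47 with RA, so only the RA mean was above the dim level (adjusted p = 0.376). Gpr17, related to nucleotide and leukotriene receptors, was in the same position, at 6.18 and 6.15 with DMSO and 6.23 and 6.48 with RA. Gpr1, Gpr34, Gpr119 and Gpr174 were under the dim level in both groups. Of these, Gpr34 and Gpr174 are receptors for lysophosphatidylserine.

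**Figure D2:**
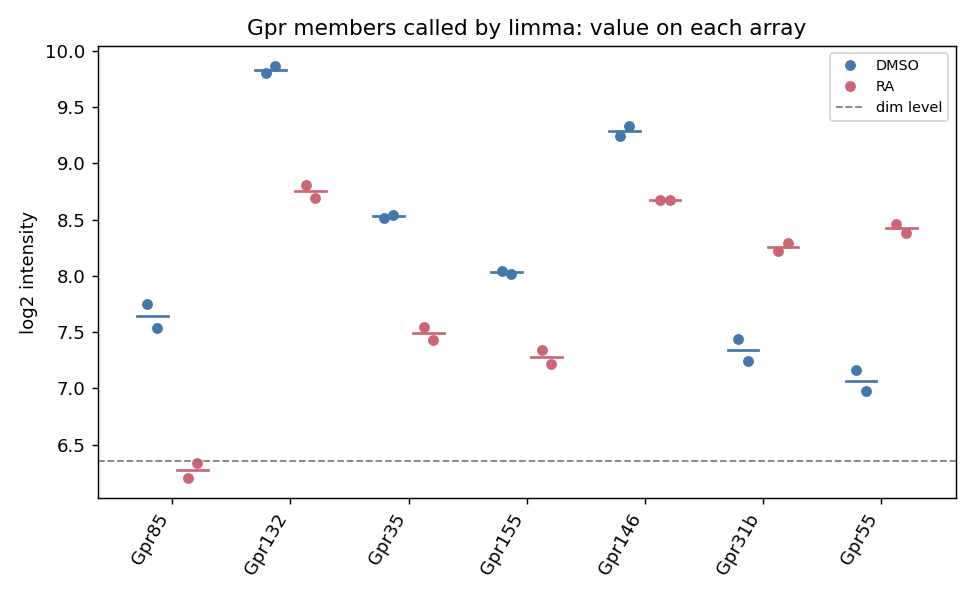
The log2 intensity of the 7 called Gpr genes on each array, DMSO in blue and retinoic acid (RA) in red, with a short line at each group's mean of 2 arrays and the dim level of 6.35 dashed. No gene has overlapping groups, and Gpr85 with RA lies under the dashed line; heights of different genes come from different probes and are not to be compared.

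The sequence before the start sites is shown for Gpr55 and Gpr31b, which rose, and for Gpr132 and Gpr35, which fell. A link between these sequences and the direction of change was not tested. The 250 bases before each RefSeq start were taken from GRCm38.p6, for 48 of the 64 genes (62 windows) and all 7 called ones. Capitals mark matches, on either strand, to any of these motifs, which were chosen after the values were seen: AGGTCA, the core bound by retinoic acid receptors, GAGGAAGT, which the myeloid factor PU.1 and other ETS proteins bind, and TGACTCA, the AP-1 site. Windows run 5′ to 3′ along the gene's own strand, at chr1:85961056-85961305 (minus) for Gpr55, chr17:13052281-13052530 (minus) for Gpr31b, chr12:112860917-112861166 (minus) for Gpr132 and chr1:92978653-92978902 (plus) for the second of the starts of Gpr35 along its strand.
Gpr55: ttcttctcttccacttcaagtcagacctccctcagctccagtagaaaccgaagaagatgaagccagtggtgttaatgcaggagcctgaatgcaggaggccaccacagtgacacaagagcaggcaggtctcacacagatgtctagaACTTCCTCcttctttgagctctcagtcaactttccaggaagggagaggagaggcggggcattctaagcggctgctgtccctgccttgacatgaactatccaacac
Gpr31b: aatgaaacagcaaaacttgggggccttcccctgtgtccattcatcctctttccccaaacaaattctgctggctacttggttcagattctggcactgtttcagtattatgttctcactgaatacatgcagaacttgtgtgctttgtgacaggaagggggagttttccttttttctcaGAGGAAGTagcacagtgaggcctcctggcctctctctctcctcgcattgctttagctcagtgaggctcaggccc
Gpr132: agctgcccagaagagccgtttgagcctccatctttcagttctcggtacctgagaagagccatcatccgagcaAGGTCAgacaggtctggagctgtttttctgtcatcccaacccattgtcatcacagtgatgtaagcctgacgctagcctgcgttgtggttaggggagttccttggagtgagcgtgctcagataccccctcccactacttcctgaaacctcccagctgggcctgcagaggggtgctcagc
Gpr35: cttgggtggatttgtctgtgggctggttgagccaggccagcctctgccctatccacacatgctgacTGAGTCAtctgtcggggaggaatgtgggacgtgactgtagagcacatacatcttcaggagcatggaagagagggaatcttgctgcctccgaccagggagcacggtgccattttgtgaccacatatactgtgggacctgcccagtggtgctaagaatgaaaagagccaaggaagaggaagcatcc
The windows of both raised genes hold GAGGAAGT or its reverse complement ACTTCCTC, which 2.44% of 32851 RefSeq windows and 4.84% of the 62 Gpr windows hold, the third Gpr window being that of a gene that was not called. That of Gpr132 holds AGGTCA, found in 4607 of the 32851 windows and in 16.1% of the 62 Gpr windows. Gpr155 also holds that core, as TGACCT. The Gpr35 window holds TGACTCA as TGAGTCA, which 4.46% of windows and 1.61% of the Gpr windows hold. No match to any of them was found before the other start of Gpr35, before Gpr85 or before the 3 starts of Gpr146, and no Gpr window holds AGGTCA as a direct repeat spaced by 2 or 5 bases, the form that retinoic acid receptors bind as dimers. Each of these repeats is present in 3 of the 32851 windows. The motifs may overlap in a window, the letters were matched exactly, and a match is a description of the sequence, not of binding.

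Of the 9 leukocyte receptors, Gpr146 fell and 8 did not pass, where 3.07% of all genes passed. Gpr146, linked to cholesterol levels through its role in the liver, measured 9.24 and 9.33 with DMSO and 8.67 on both RA arrays (probe set 17444002). The RA arrays were all but identical and lay 0.57 under the nearest DMSO array. The difference was -0.62 ± 0.08, 1.53-fold lower (limma adjusted p = 0.0414; 0.177 to 0.268 without any 1 array), the smallest of the 7 and the nearest to the threshold.

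Gpr141, an orphan receptor of myeloid cells, had the largest difference of all 64 genes and still did not pass. It measured 9.20 and 8.43 with DMSO and 7.32 and 6.79 with RA. Both RA arrays were below both DMSO arrays by at least 1.10, but within each group the arrays stood apart by more than for any called gene. The difference was -1.76 ± 0.31, 3.38-fold lower in the means, with a 95% confidence interval of -2.58 to -0.94 (limma adjusted p = 0.0908). Its range without any 1 array was -2.15 to -1.37. Among the fits without a replicate block, it passed where only probe sets with 1 symbol (adjusted p = 0.0120) or only the brighter ones (0.0488) were fitted. Its neighbour Gpr141b on chromosome 13 was under the dim level in both groups and differed by -0.13.

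Gpr171 and Gpr160 were above the dim level with overlapping groups. Gpr171, a receptor for a neuropeptide that also occurs in lymphocytes, has a pair of probe sets here. The brighter one measured 10.53 and 10.19 with DMSO and 10.29 and 10.10 with RA, and the dimmer one 7.01 and 6.36 with DMSO and 6.81 and 6.62 with RA. Their differences, -0.16 and 0.04, had intervals of -0.55 to 0.22 and -0.57 to 0.64. Gpr160, an orphan receptor, measured 9.43 and 9.57 with DMSO and 9.64 and 9.53 with RA. Gpr25, a receptor of lymphocytes, lay near the dim level, at 6.71 and 6.82 with DMSO and 6.78 and 6.56 with RA in the brighter probe set. In the other one it was under the dim level in both groups. Gpr15, a homing receptor of gut T cells, was under the dim level in both group means, although DMSO replicate 1 reached 6.61, and the other 3 arrays were between 5.42 and 5.74. Gpr33 and Gpr82 were under it too.

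Gpr155 fell, among 7 membrane proteins of organelles of which 6 did not pass, where 3.07% of all genes passed. Gpr155 is a lysosomal protein that senses cholesterol. Its brightest probe set (17386514) measured 8.04 and 8.02 with DMSO and 7.34 and 7.22 with RA. The groups did not overlap, and the difference was -0.75 ± 0.09, 1.68-fold lower (limma adjusted p = 0.0296; 0.118 to 0.207 without any 1 array). Its other probe sets, at or near the dim level, differed by -0.18 and -0.06 and did not pass (adjusted p = 0.429 and 0.805). Gpr108 and Gpr107, Golgi proteins of one family, differed by -0.19 and 0.13. Gpr108 measured 9.68 and 9.82 with DMSO and 9.56 on both RA arrays, and Gpr107 8.95 and 8.63 with DMSO and 8.91 and 8.93 with RA. Gpr180 measured 8.30 and 8.23 with DMSO and 8.38 and 8.34 with RA. All 3 had a 95% confidence interval that includes 0, the widest running from -0.21 to 0.46 for Gpr107. Gpr137b, Gpr137c and Gpr143 were under the dim level in both groups.

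Gpr85 had the largest fall that passed. Together with Gpr27 and Gpr173 it forms a family of strongly conserved receptors that are expressed in the brain (probe set 17464922). It measured 7.75 and 7.54 with DMSO and 6.21 and 6.34 with RA. Both RA arrays were under the dim level, so the fold is against background. The difference was -1.37 ± 0.11, 2.59-fold lower (limma adjusted p = 0.0137; 0.0756 to 0.102 without any 1 array). Gpr27 measured 7.30 and 7.27 with DMSO and 7.53 and 7.64 with RA, a difference of 0.29 with an interval of 0.08 to 0.51 that did not pass (adjusted p = 0.231). Gpr173 was under the dim level in both groups.

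The other receptors with brain, endocrine or unknown roles lay near or under the dim level. Besides Gpr85 and Gpr27, 10 of the 30 were above it in at least 1 group, and none of these 10 passed. Gpr20 measured 7.05 and 7.003 with DMSO and 6.93 and 6.96 with RA, and Gpr75 7.03 and 6.81 with DMSO and 6.73 and 7.0001 with RA. Gpr176 measured 6.80 and 6.71 with DMSO and 6.68 and 6.76 with RA. These 3 had differences between -0.08 and -0.04. Gpr157 measured 6.55 and 6.62 with DMSO and 6.77 and 6.90 with RA. Gpr101 measured 6.67 and 6.42 with DMSO and 6.84 and 6.85 with RA. Gpr26 measured 6.53 on both DMSO arrays and 6.77 and 6.72 with RA. In Gpr157, Gpr101 and Gpr26 the RA arrays were the higher ones without overlap. Their differences were 0.26, 0.31 and 0.21, with limma adjusted p of 0.325, 0.344 and 0.346. Gpr50 was also higher with RA without overlap, and Gpr20 lower. Over the 30 receptors the groups did not overlap for 12 (40%), against 48% of all genes. Gpr182 measured 6.59 and 6.43 with DMSO and 6.56 and 6.43 with RA. Gpr50, the melatonin-related receptor, measured 6.23 and 6.03 with DMSO and 6.31 and 6.54 with RA. Gpr153 measured 6.32 and 6.21 with DMSO and 6.19 and 6.56 with RA, and Gpr161, a receptor of the primary cilium, 6.25 and 6.09 with DMSO and 6.18 and 6.53 with RA. In Gpr50, Gpr153 and Gpr161 only the RA mean was above the dim level, each time through RA replicate 2. Of the receptors with constitutive cAMP signalling, Gpr6 measured 6.38 and 6.35 with DMSO and 6.32 and 6.50 with RA, and Gpr12 was under the dim level. Both class C receptors, Gpr158 and Gpr179, were under it.

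**Figure D3:**
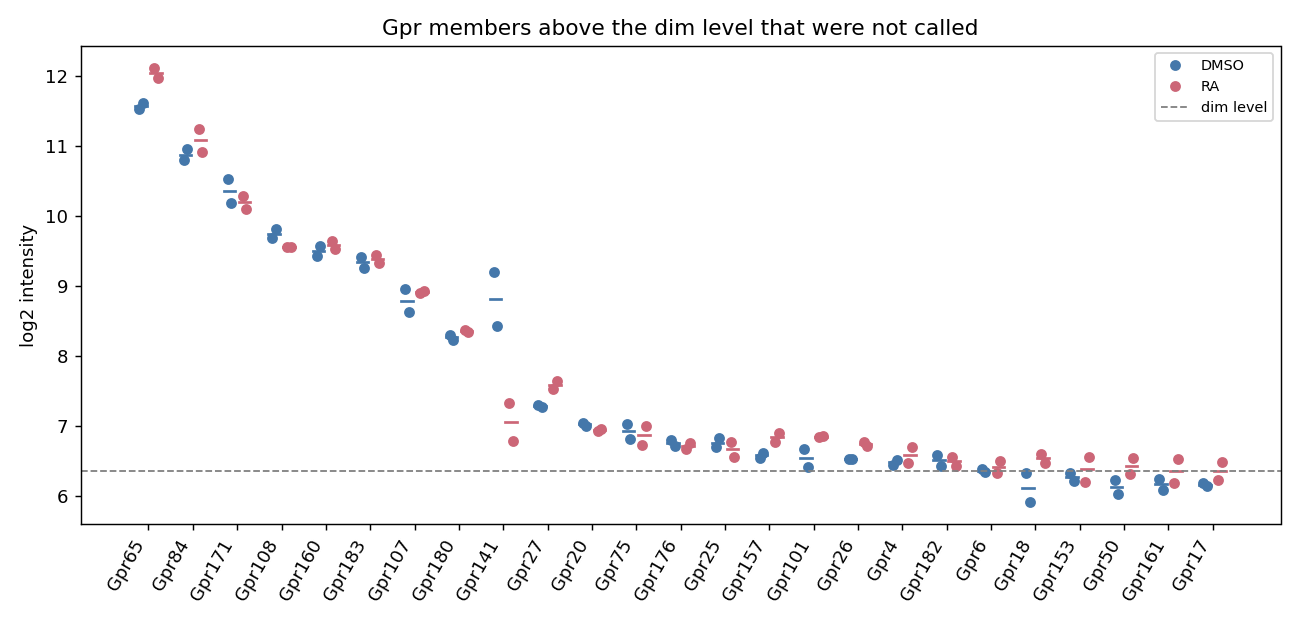
The log2 intensity on each array of the 25 Gpr genes that were above the dim level of 6.35 (dashed) in at least 1 group and were not called, DMSO in blue and retinoic acid (RA) in red, with group means as short lines. Gpr141 is the gene whose arrays spread most within a group, and from Gpr157 rightwards all values lie within 0.6 of the dim level.

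The 32 genes under the dim level in both groups had mean log2 intensities from 4.25 to 6.32. Their differences ran from -0.55 to 0.26, with a median of 0.00, and limma called 0 of them, with 2 at an unadjusted p under 0.05. These were Gpr82, an orphan gene next to Gpr34 on the X chromosome, with a difference of -0.32, and Gpr33, with -0.23. RMA smooths background and shrinks the differences of dim probe sets, so a response of these genes can neither be read from nor denied by these values.

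**Figure D4:**
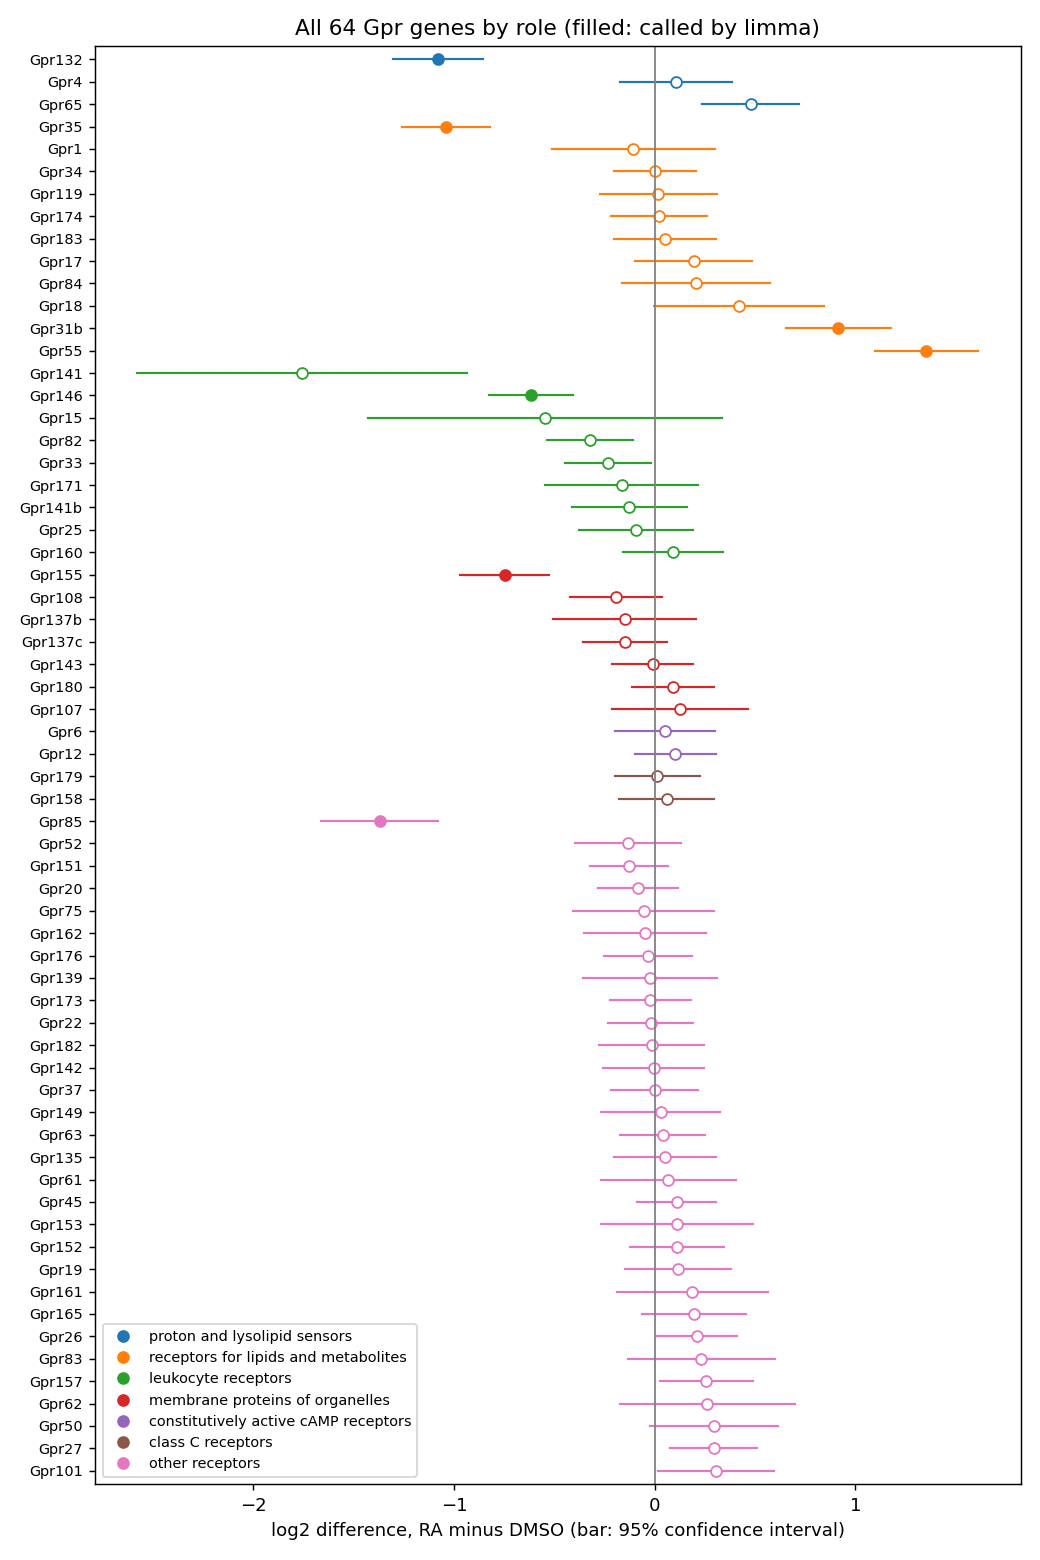
The log2 difference, RA minus DMSO, of all 64 Gpr genes with its 95% confidence interval (limma), coloured by role; filled points passed an adjusted p under 0.05. The intervals of Gpr132 and Gpr35 lie under 0 and those of Gpr55 and Gpr31b above it, and the interval of Gpr141 is among the widest.

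Genes that act with these receptors were read from 10 lists, 107 of 116 genes being measured. Of these 107, 7 passed, where 3.07% of all genes and 5.16% of genes above the dim level passed. Of the 13 G protein alpha subunits, Gna15 fell and 12 did not pass (median difference -0.01). Gna15 couples many different receptors to phospholipase C in blood cells. It measured 10.95 and 10.84 with DMSO and 9.68 and 9.82 with RA, 2.20-fold lower (limma adjusted p = 0.0140). Of 6 receptor kinases and arrestins, which switch active receptors off, Grk3 fell and 5 did not pass. Grk3 measured 9.66 and 9.61 with DMSO and 8.43 and 8.45 with RA, 2.28-fold lower (limma adjusted p = 0.00833). For both genes the RA arrays were below the DMSO arrays by more than 1 log2 unit.

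The remaining signalling lists had no call. Counts at an unadjusted p under 0.05, here and in the lists below, stand beside 3357 of all 22180 genes in the same fit. Limma called 0 of 13 beta and gamma subunits (2 at an unadjusted p under 0.05), 0 of 8 adenylyl cyclases (1) and 0 of 19 Rgs proteins (5), with medians of 0.06, -0.04 and -0.11. In the Rgs list, whose members speed the shut-off of G proteins, Rgs2 differed by 0.73 and Rgs1 by -0.72 (adjusted p = 0.0807 and 0.0802). The 4 enzymes that make or convert the Gpr183 ligand had 0 calls (1 at an unadjusted p under 0.05). Ch25h, which makes the oxysterol precursor, measured 6.92 and 7.79 with DMSO and 5.89 and 6.39 with RA (adjusted p = 0.220). The 3 enzymes of lysophosphatidylserine had 0 calls (2 at an unadjusted p under 0.05).

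Receptors that once carried a Gpr number and were renamed when their ligand was found had calls in both directions. Of 23 measured, 1 rose, 2 fell and 20 did not pass, where 3.07% of all genes passed. Hcar2, the receptor for niacin and beta-hydroxybutyrate, measured 9.74 and 9.41 with DMSO and 7.58 and 7.47 with RA, 4.13-fold lower (limma adjusted p = 0.00857). Ffar4, a receptor for long-chain fatty acids, measured 7.21 and 7.03 with DMSO and 5.80 and 6.11 with RA, under the dim level (adjusted p = 0.0325). Ffar2, a receptor for short-chain fatty acids, measured 7.14 and 7.04 with DMSO and 7.72 and 7.75 with RA, 1.57-fold higher (adjusted p = 0.0385). Of 14 adhesion receptors with an earlier Gpr number, 2 rose and 12 did not pass: Adgrg3 by 0.95 ± 0.09 (adjusted p = 0.0212) and Adgra3 by 0.58 ± 0.08 (0.0471). Limma called 0 of the 4 Gprc5 receptors (1 at an unadjusted p under 0.05), a family whose first member was found as a gene induced by retinoic acid. That member, Gprc5a, was under the dim level in both groups and differed by -0.33 (adjusted p = 0.165). With the constant probe sets kept in the fit, 0 genes of all the lists passed. With the replicate block Hcar2 alone passed (limma adjusted p = 0.0379). All 7 calls in these lists were lost without any 1 of the 4 arrays, and that of Adgra3 also with quantile normalization (adjusted p = 0.0505) and with a prior variance that follows intensity (0.0518).

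Markers of other cells were read beside these results, since several Gpr genes are lymphocyte genes. Among all genes 3.07% passed, and 5.16% of those above the dim level. Of 7 measured B cell markers, Cd79b rose by 0.65 ± 0.09 (limma adjusted p = 0.0471), Cd79a lay near the dim level, and Ebf1, Igll1, Vpreb1, Ms4a1 and Pax5 were under it in both groups. Their summed intensity was 379 to 393 with DMSO and 478 on both RA arrays. Most of that rise came from Cd79b, at an intensity of 134 and 130 with DMSO and 218 and 197 with RA, and the other 6 did not pass. Of 9 markers of eosinophils, basophils and mast cells, Siglecf rose by 0.61 ± 0.08 (adjusted p = 0.0488), and the sums were 925 to 933 with DMSO and 1034 to 1065 with RA. The rise of these sums came from Siglecf, at an intensity of 250 and 266 with DMSO and 382 and 404 with RA, and the other 8 did not pass. Limma called 0 of 7 markers of T and NK cells (1 at an unadjusted p under 0.05), with sums of 363 to 377 with DMSO and 363 to 374 with RA. It called 0 of 9 neutrophil markers (1), all above the dim level in both groups, with sums of 16467 to 17779 with DMSO and 17793 to 18526 with RA. The largest difference among these was 0.73 ± 0.11 for Prtn3, a granule protease (adjusted p = 0.0601), and the other 8 were between -0.15 and 0.21. Limma called 0 of 5 markers of erythroid cells and megakaryocytes (1), with sums of 585 to 593 with DMSO and 539 to 557 with RA, and 0 of 5 of plasmacytoid dendritic cells (3), with sums of 1047 to 1068 and 1002 to 1138. Of the 8 markers of the sorted monocytes themselves limma called 0, with 4 at an unadjusted p under 0.05: Itgam differed by 0.66, Fcgr1 by 0.60, Cd14 by 0.29 and Ccr2 by -0.34 (adjusted p 0.0893 to 0.293). Their sums were 31747 to 33533 with DMSO and 34549 to 37031 with RA. The part of these marker shifts in the differences of the Gpr genes was not tested.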

How the data were processed

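Total RNA from 4 samples of sorted monocytes (250 ng per array, Affymetrix WT PLUS labelling, per the labels) was read on whole-transcript arrays. The authors deposited 1 linear intensity per probe set and array, made with Affymetrix Expression Console and RMA per the submitters' processing notes. Versions and the genome build are not given in the sources used here. Values were transformed to log2 and not normalized again. Of 41345 probe sets, 1625 held 1 constant value on all 4 arrays and were left out, a choice made with the counts of an earlier analysis known; 39720 remained. RA and DMSO arrays were compared with limma 3.58.1 in R 4.3.3 (lmFit, eBayes, two-sided, no covariates), with Benjamini-Hochberg adjustment over all tested probe sets. The fit was run on simulated arrays with variances drawn from limma's own fitted prior, which checks the code and not whether the model holds here. A gene with several probe sets was read from its brightest probe set, by mean over all arrays. All 64 symbols matched the RefSeq gene table of GRCm38.p6, and promoter sequences are RefSeq's of that build. Values on every array are given for Gpr132, for each Gpr probe set that passed and for each Gpr gene above the dim level in either group; list members were named if they passed. Markers that did not pass, Rgs1, Rgs2, Ch25h, Gprc5a and the Gpr genes under the dim level were named after their values were seen. The Gpr genes, roles and lists were chosen with earlier results of these data known. Alternatives changed the normalization, the filters, the prior variance, an offset of 16, the replicate block and the arrays used. The number of arrays limits the precision.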

Additional observations from a re-analysis of the deposited data

How the results depend on the processing

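The counts of calls rest on few arrays. When any 1 array was left out, limma called 0 Gpr probe sets, 0 genes of the signalling lists and between 25 and 55 of all probe sets, the last being 41 without either DMSO array, 25 without RA replicate 1 and 55 without RA replicate 2; the lone array of a group is then assumed to vary like the other group. With the constant probe sets kept, 0 Gpr probe sets, 0 list genes and 0 of all probe sets passed (smallest adjusted p = 0.0535, and 6260 at an unadjusted p under 0.05). With only probe sets of 1 symbol fitted, 9 Gpr probe sets, 12 list genes and 1636 of all probe sets passed. Median-centring, quantile normalization, a robust prior and the offset of 16 each gave 7 Gpr calls, and the intensity filter and the intensity trend 8 each; the 7 calls reported were kept in all of these. The labels' replicate numbers are not said to pair cultures, and deviations of same-numbered arrays correlated at -0.25 across probe sets. With the replicate block, 1 Gpr probe set (Gpr141, adjusted p = 0.0450), 1 list gene (Hcar2) and 161 of all probe sets passed, and 0 of the 7 reported. With the numbers crossed, an alternative chosen after seeing the data, 5 Gpr probe sets, 4 list genes and 457 of all probe sets passed. Of the calls reported, Gpr155 (limma adjusted p = 0.0640), Gpr146 (0.0771), Ffar2, Adgrg3 and Adgra3 did not pass there. At the 99th percentile of the dim control (7.33) 17 Gpr genes in place of 32 were above the dim level. Of 36 named Gpr probe sets, 25 kept their sign in all 13 alternatives other than the crossed numbers, the 7 called ones among them. For these 7, whose groups do not overlap, leaving out 1 array could not turn the sign. The sign turned in 11 that were not called, each only when an array was left out. The ranges were -0.037 to 0.289 for Gpr107, -0.0736 to 0.294 for Gpr153, -0.332 to 0.0031 and -0.287 to 0.362 for the brighter and dimmer probe sets of Gpr171, -0.0792 to 0.0092 for Gpr176, -0.0965 to 0.0682 for Gpr182, -0.0277 to 0.129 for Gpr183, -0.203 to 0.0141 for Gpr25, -0.0069 to 0.216 for Gpr4, -0.0384 to 0.139 for Gpr6 and -0.188 to 0.0778 for Gpr75. The cause of these changes was not tested.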
